A study of Mus musculus with 28 samples.

Results

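The 45 genes described here are Myc and 44 genes that build ribosomes, chosen by symbol from a fixed list and all found among the 25124 genes of the deposited expression table. They were followed in CD4+ T cells sorted from the lamina propria of the small intestine, the connective tissue under the gut epithelium (gate: live, CD45+, CD90.2+, TCRb+, CD4+). All mice carried the T-bet-ZsGreen reporter genotype. SPF isotype (mice kept specific pathogen free, given an isotype control antibody) had 6 libraries, 3 from females and 3 from males, and SPF aCD3 (anti-CD3 antibody, which engages the T cell receptor complex) had the same numbers. GF isotype (germ-free mice, control antibody) had 10 libraries, 5 of each sex, and GF aCD3 had 6, of which 1 came from a female. Dose, time after injection, age and cage are not given in the sources used here.

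Ribosomes are assembled in the nucleolus. RNA polymerase I transcribes the precursor of the large rRNAs, small nucleolar ribonucleoproteins modify it (box C/D particles by methylation, box H/ACA particles by pseudouridylation), the small subunit processome cuts out the 40S precursor, and a separate set of factors matures the 60S subunit. MYC is a transcription factor known to activate genes of all these steps, and T cells activated through their receptor are known to raise MYC and enlarge their nucleoli.

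The libraries held between 6765529 and 17860611 reads in genes, as recovered from the steps between low values. Values are TPM, which share out each library's reads over genes after division by gene length, here the genomic span of each gene. The 45 genes averaged 2.43 (Polr1b) to 316 TPM (Ncl) over the 28 libraries, so all passed the filter for testing (6 or more libraries reaching a TPM of 1, met by 12182 genes), and the fewest reads on any of them in a library was 32. Histone genes took 4.05 to 7.04% of the TPM in SPF isotype and 23.8 to 26.8% in SPF aCD3, and Mki67, a proliferation marker, rose from 53.1 ± 16.2 to 302 ± 31.5 TPM (SD, n = 6 each). TPM are shares of a whole, and the median of all tested genes moved by -0.35 on the log2 scale after aCD3 in SPF mice, by -0.15 after aCD3 in GF mice, by 0.15 between GF and SPF isotype, and by 0.34 between GF and SPF aCD3. Counts below are therefore given on the deposited TPM and, beside that, after scaling the libraries to each other by their median of ratios, which takes that shift out.

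The label of CD4 T cells was checked with markers. The 10 T cell markers summed to 1868 to 2504 TPM over all libraries, and no group had one at 0. Among them Cd3d and Cd3e were higher and Thy1 and Ptprc lower in SPF aCD3 (8 higher and 1 lower after scaling), Thy1 was lower after aCD3 in GF mice, Cd3d was higher in GF than in SPF isotype, and Lck and Ptprc were higher in GF than in SPF aCD3 (0 higher and 6 lower after scaling). CD8 T cell markers summed to 5.68 to 13.5 TPM in SPF isotype and 9.75 to 23.8 in SPF aCD3, with 1 of 2 higher (Cd8b1), and reached 61.2 in a GF isotype library. B and plasma cell markers summed to 97.1 to 277 TPM in SPF isotype and 3.63 to 10.996 in SPF aCD3 (Jchain and Mzb1 lower, of 4 tested), to 11.5 to 120 in GF isotype and 8.34 to 102 in GF aCD3. Myeloid markers summed to 6.13 to 26.8 TPM in SPF isotype and 62.0 to 153 in SPF aCD3, where Cd68 was higher and Fcer1g and Tyrobp lower, and 3 of the 10 were at 0 throughout SPF isotype. Stromal markers fell from 15.3 to 51.5 TPM to 3.29 to 6.38 in SPF (4 of 4 tested lower). Between isotype groups Dcn, Col1a1, Lum and Jchain were lower in GF mice. Between aCD3 groups Jchain, Epcam, Pecam1 and Alas2 were higher in GF mice, with 0 higher in their lists after scaling, and Cd68, Krt18 and Lum were lower. The difference of the aCD3 effect between GF and SPF mice was called for Jchain, Dcn and Col1a1, higher, and Cd68, lower. After aCD3 in GF mice Cdh1 was lower. Erythroid markers summed to at most 10.2 TPM and epithelial markers to at most 68.1, the latter with Cdh1 and Fabp1 lower in SPF aCD3, and pancreatic acinar markers reached 602 in a GF aCD3 library, with 0 of 9 tested changed in SPF, 1 (Sycn) higher after aCD3 in GF mice (3 after scaling) and 8 higher in GF than in SPF aCD3 under both scalings. The part of these cells in the results below was not tested. In bulk samples fewer cells of a type and less RNA per cell cannot be told apart.

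MYC is known to bind the sequence CACGTG, so the promoters of the 45 genes were searched for it. The RefSeq-derived promoter table (build GRCm38.p6) held 39 of them, leaving out Myc, Npm1, Fbl, Bop1, Rrp12 and Rrs1. In the window of 300 bases, 250 before and 50 after the gene's start, CACGTG (a palindrome, the same on both strands) was present in 8 of 39, or 20.5%, beside 11.9% of the 9194 tested genes and 8.09% of all 27025 genes in the table. The count depended on the window. A search of only the 250 bases before the start, which was run first, found the letters in 1 of 39 genes, 2.56%, beside 9.96% of the tested genes, and both windows are given because both results were known when they were compared. The matches are shown with up to 10 bases either side, 5′ to 3′ on the gene's strand, with CACGTG in capitals. The start and strand were checked against GENCODE transcripts and matched for 32 of the 39 genes; of the 8 shown, Nop2 and Mybbp1a were not matched. By the table, the match in Nop2 began 60 bases before the start and those in the other 7 genes began 2 to 40 bases after it.
Grwd1: gccggagtcgCACGTGtgaaaccgga
Ltv1: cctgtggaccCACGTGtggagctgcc
Mybbp1a: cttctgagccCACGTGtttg
Nop2: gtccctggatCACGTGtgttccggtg
Pes1: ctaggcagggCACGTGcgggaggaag
Tsr1: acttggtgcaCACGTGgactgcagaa
Utp20: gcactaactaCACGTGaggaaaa
Wdr43: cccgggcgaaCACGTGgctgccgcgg
On deposited TPM none of the 8 genes with a match rose after aCD3 in SPF mice and 4 fell, with a median log2 fold change of -0.26, and of the 31 without one 3 rose and 12 fell, with a median of -0.23. Of all tested genes with a match 11.4% rose and 55.8% fell, and of those without 14.5% and 52.2%. After the scaling described above, 2 rose and 1 fell with a match (median 0.12) and 15 rose and 5 fell without (median 0.19), beside 29.3% and 31.99% of all genes with a match and 31.7% and 30.0% of those without. A match is a run of letters and not a binding site. The 250 bases before the start are shown for Nop2, the gene with an upstream match (chr6:125131633-125131882, + strand), and for the genes with the highest and the lowest fold change in SPF mice, Nhp2 (chr11:51619523-51619772, + strand) and Polr1a (chr6:71908803-71909052, + strand), neither of which has the letters.
Nop2: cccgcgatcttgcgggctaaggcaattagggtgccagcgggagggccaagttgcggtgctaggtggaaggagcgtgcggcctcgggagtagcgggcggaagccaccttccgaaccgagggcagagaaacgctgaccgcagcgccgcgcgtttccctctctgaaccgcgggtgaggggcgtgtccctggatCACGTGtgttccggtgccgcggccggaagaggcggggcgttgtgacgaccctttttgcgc
Nhp2: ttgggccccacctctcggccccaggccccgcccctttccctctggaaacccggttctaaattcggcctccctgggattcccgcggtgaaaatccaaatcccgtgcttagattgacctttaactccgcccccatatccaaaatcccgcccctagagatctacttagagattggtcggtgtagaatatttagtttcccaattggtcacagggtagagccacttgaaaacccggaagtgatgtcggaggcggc
Polr1a: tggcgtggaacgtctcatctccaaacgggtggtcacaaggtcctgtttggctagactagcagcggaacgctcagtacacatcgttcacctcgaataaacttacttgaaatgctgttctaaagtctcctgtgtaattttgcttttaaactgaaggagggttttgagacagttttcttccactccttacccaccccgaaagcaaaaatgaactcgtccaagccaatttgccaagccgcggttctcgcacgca

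After aCD3 in SPF mice the ribosome biogenesis genes did not move as 1 block. Against SPF isotype, 3 of the 45 genes rose (Nhp2, Nip7 and Ebna1bp2) and 18 fell on deposited TPM, and 24 did not pass the test (limma across all tested genes, Benjamini-Hochberg adjusted p under 0.05). Of all tested genes 14.2% rose and 50.7% fell. The median log2 fold change was -0.23 for the 45 genes and -0.35 for all tested genes. After median-of-ratios scaling the split turned to 20 higher and 6 lower, with a median of 0.17, beside 30.6% higher and 29.3% lower among all genes. The 3 genes that rose and 6 that fell (Polr1a, Nop10, Wdr43, Rcl1, Rrp9 and Ddx10) were called in the same direction under both scalings, where 14.2% of all tested genes were so called higher and 29.3% lower. Leaving out single libraries gave 2 to 5 genes higher and 13 to 23 lower, beside 12.99 to 14.5% and 47.1 to 53.02% of all genes, and the 5 came without SPF aCD3 M2. Taken within each sex, a split chosen after the values were seen, 5 genes rose and 5 fell in females (13% and 33.7% of all genes; member median 0.04), and 0 rose and 25 fell in males (9.98% and 45.4%; member median -0.42). After scaling 24 rose and 2 fell in females (24.8% and 22.2%) and 11 rose and 11 fell in males (24.2% and 23.1%). Fbl, Nop10, Polr1a, Wdr43 and Ddx10 fell in both sexes on deposited TPM, where 29.7% of all genes did, and Polr1a and Ddx10 did so under both scalings, where 16.3% did. Sample numbers ran from 1 to 6 in SPF isotype and from 7 to 12 in SPF aCD3, so treatment and sample order cannot be told apart.

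**Figure D1:**
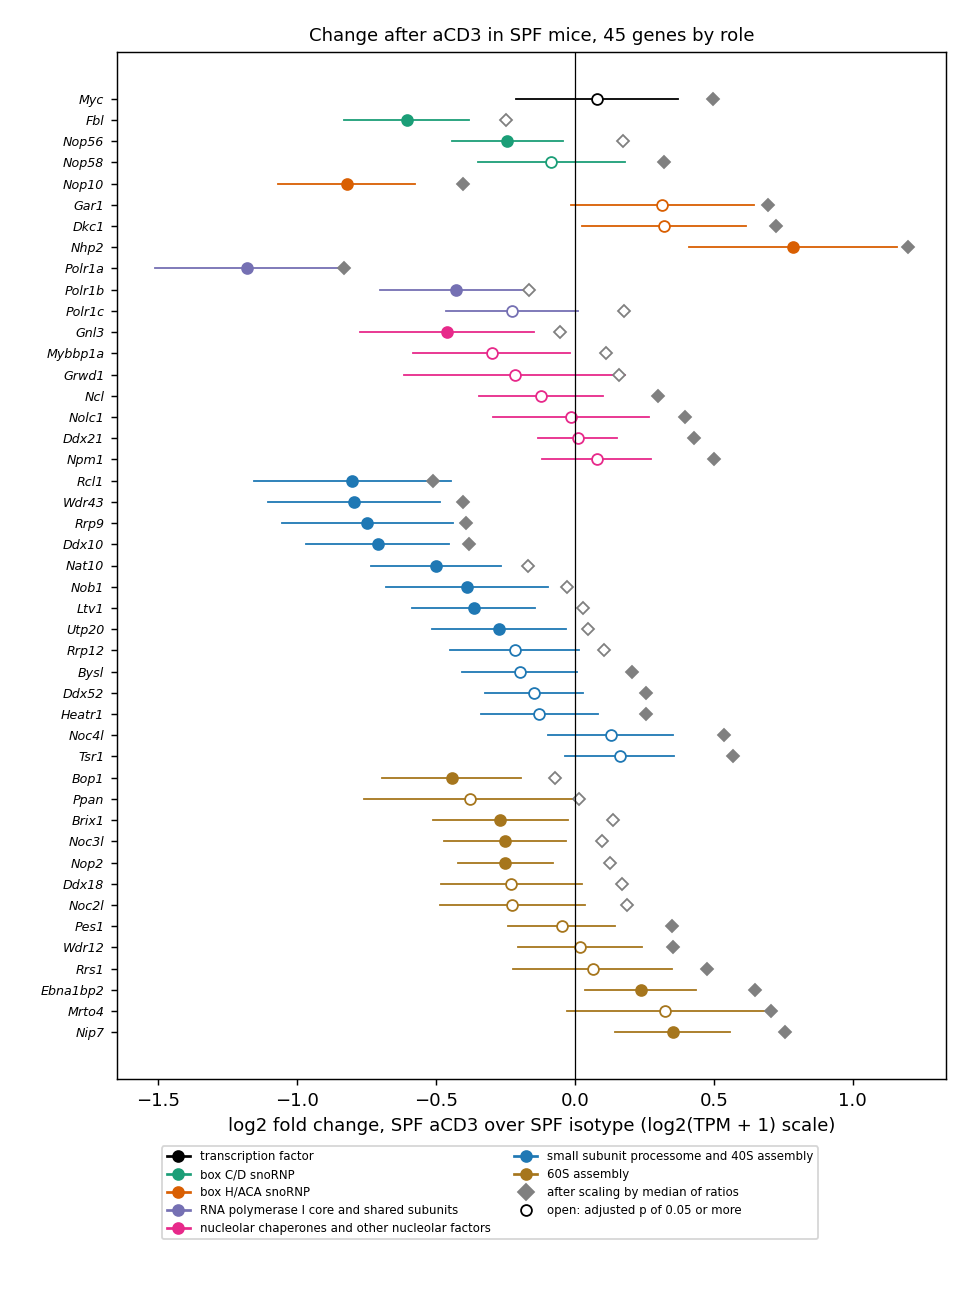
Log2 fold change of the 45 genes between SPF aCD3 and SPF isotype (x axis, log2(TPM + 1) scale), one row a gene, coloured by role. Circles with 95% intervals are deposited TPM, grey diamonds the same after median-of-ratios scaling, and open symbols did not pass an adjusted p of 0.05. The diamonds sit to the right of the circles, and Polr1a at -1.18 and Nhp2 at 0.79 mark the ends.

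Myc itself did not pass the test on deposited TPM. Its level was 90.4, 99.5 and 62.6 TPM in females and 65.2, 86.6 and 74.0 in males of SPF isotype, and 98.9, 119.7 and 126.2 TPM in females and 66.1, 58.0 and 57.4 in males of SPF aCD3. The groups overlapped, with the treated females high and the treated males low. The log2 fold change was 0.08 ± 0.14 (SE; limma adjusted p = 0.632), and 0.50 ± 0.15 after scaling (limma adjusted p = 0.00472). Within females it was 0.46 ± 0.16 on deposited TPM (limma adjusted p = 0.0232) and within males -0.30 ± 0.16 (limma adjusted p = 0.115), and after scaling 0.81 and 0.19, the latter not called. In GF mice Myc ranged from 73.9 to 110.9 TPM under isotype (median 91.9) and was 86.9 TPM in the female and 86.7, 98.5, 90.8, 79.2 and 70.9 TPM in the males given aCD3. The GF groups overlapped almost fully.

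Among the box C/D proteins, Nop56, a core scaffold and the most abundant of the 3, fell by 0.24 on the log2 scale (SE 0.10, limma adjusted p = 0.0305), and after scaling its value was 0.17 and did not pass. Fbl encodes fibrillarin, the methyltransferase of these particles. It stood at 7.3, 7.5, 8.8, 7.0, 8.9 and 8.5 TPM in SPF isotype and 5.3, 5.6, 4.3, 6.0, 4.2 and 4.1 TPM in SPF aCD3. Every treated library was below every control library, and the log2 fold change was -0.61 ± 0.11 (limma adjusted p = 5.13e-05), or -0.25 after scaling (limma adjusted p = 0.0641). Nop58, the partner of Nop56, had -0.08 ± 0.13, and after scaling it was called at 0.32.

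The box H/ACA proteins, which form 1 particle, went apart. Nhp2, an RNA-binding core protein, was at 32.8, 15.9, 31.3, 28.9, 28.8 and 28.7 TPM in SPF isotype and at 51.8, 62.9, 61.9, 46.9, 33.4 and 35.7 TPM in SPF aCD3. The groups did not overlap, and the low control library F2 at 15.9 TPM lay far from its group. The log2 fold change was 0.79 ± 0.18 (limma adjusted p = 0.000612), and 1.2 after scaling. Nop10, the smallest protein of the particle, was at 215.4, 254.1, 155.3, 182.9, 175.4 and 191.8 TPM in SPF isotype and at 126.8, 118.9, 126.5, 101.7, 78.8 and 109.4 TPM in SPF aCD3. It did not overlap in the other direction, with a log2 fold change of -0.82 ± 0.12 (limma adjusted p = 6.86e-06), or -0.40 after scaling. Dkc1, the pseudouridine synthase, had 0.32 ± 0.14 and Gar1 0.32 ± 0.16. Neither passed on deposited TPM (limma adjusted p = 0.0518 and 0.0864), and both did after scaling, at 0.72 and 0.70.

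Polr1a encodes the largest catalytic subunit of RNA polymerase I and had the lowest fold change of the 45 genes. It was at 10.2, 12.1, 7.6, 11.5, 10.3 and 10.1 TPM in SPF isotype and at 4.5, 4.5, 4.0, 3.8, 3.6 and 3.3 TPM in SPF aCD3. The log2 fold change was -1.18 ± 0.16 (limma adjusted p = 4.37e-06), or -0.83 after scaling, with no overlap. Polr1b, the second largest subunit, fell by 0.43 on the log2 scale (limma adjusted p = 0.00737) and had -0.16 after scaling, and Polr1c, shared with RNA polymerase III, had -0.23 ± 0.12 and 0.18 after scaling, and passed in neither. The row Rn45s, named for the rRNA precursor, had -0.15 ± 0.16 on deposited TPM and did not pass. It took 11.4 to 22.9% of the TPM of a library. Reads of the precursor and of mature rRNA were not told apart in it, so it does not measure output of RNA polymerase I.

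**Figure D2:**
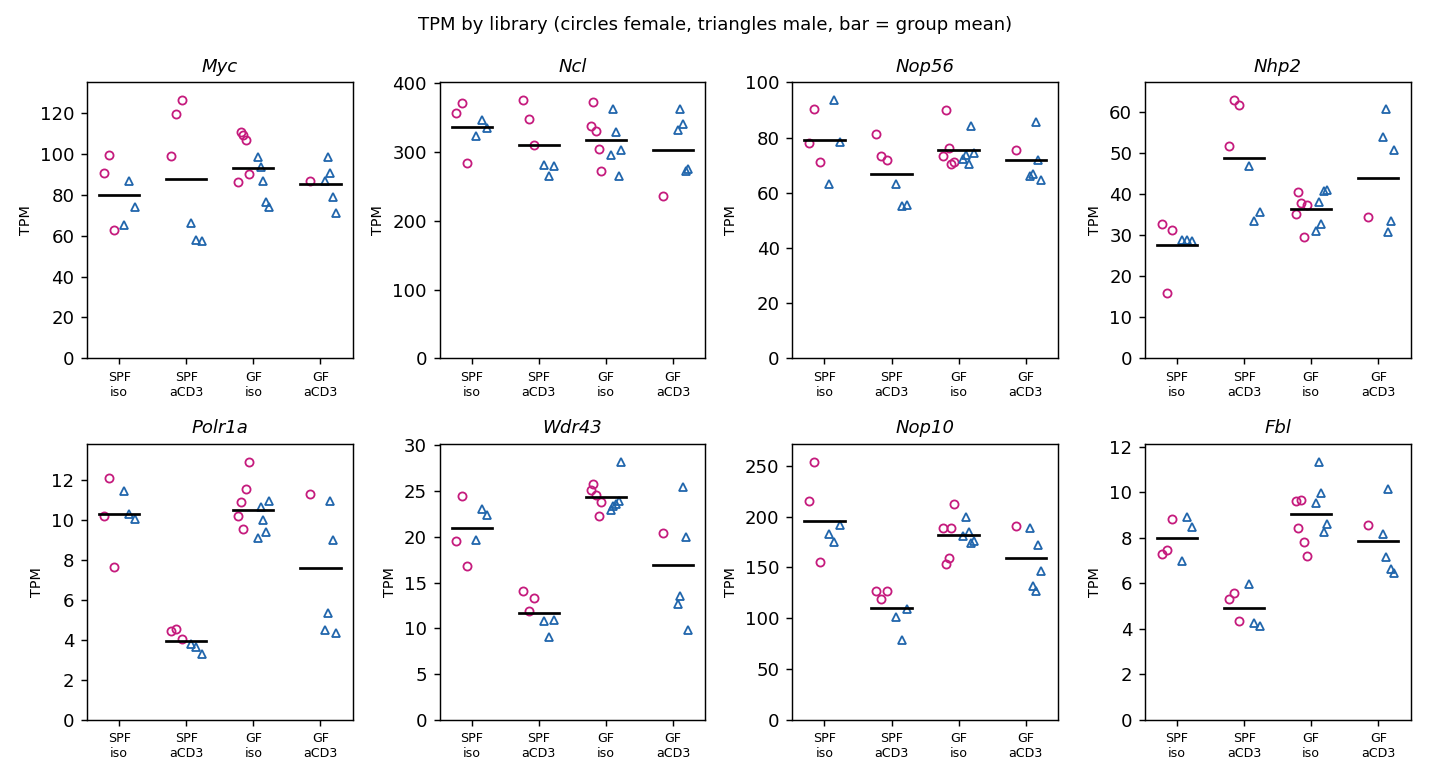
TPM (y axis, from 0) of 8 genes in each library of the 4 groups, circles female, triangles male, bars the group mean. Polr1a, Wdr43, Nop10 and Fbl are lower and Nhp2 is higher in SPF aCD3 than in every SPF isotype library, and the GF aCD3 libraries of Polr1a spread from 4.4 to 11.3 TPM.

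Of the 7 other nucleolar factors only Gnl3, a GTP-binding protein known from proliferating cells, was called, lower by 0.46 on the log2 scale (limma adjusted p = 0.0106), with -0.05 after scaling. Of all tested genes 14.2% were higher and 50.7% lower. Ncl (nucleolin), the most abundant of the 45 genes, was at 356.6, 370.4, 283.5, 322.8, 346.1 and 334.4 TPM in SPF isotype and 374.5, 348.0, 309.5, 281.0, 265.0 and 279.4 TPM in SPF aCD3, which overlapped (-0.12 ± 0.11). Npm1, the nucleolar chaperone nucleophosmin, had 0.08 ± 0.10. After scaling, Ncl, Npm1, Nolc1 and Ddx21 were called higher, at 0.30, 0.50, 0.40 and 0.43, beside 30.6% of all genes.

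Of the 14 genes of the small subunit processome and 40S assembly, 8 fell and none rose on deposited TPM, beside 50.7% and 14.2% of all tested genes, and 5 rose and 4 fell after scaling, beside 30.6% and 29.3%. The 4 that fell in both were Rcl1, Wdr43, Rrp9 and Ddx10. Wdr43, a processome protein, was at 19.5, 24.5, 16.8, 19.6, 23.1 and 22.3 TPM in SPF isotype and 14.1, 11.9, 13.4, 10.8, 9.0 and 10.9 TPM in SPF aCD3, with no overlap (-0.80 ± 0.15, limma adjusted p = 7.79e-05). Rcl1, a processome protein, went from 3.3 to 5.2 TPM in control libraries to 1.0 to 2.7 TPM (-0.80 ± 0.17, limma adjusted p = 0.000296). Rrp9, a protein bound to the U3 small nucleolar RNA, went from 7.3 to 10.2 TPM to 3.0 to 6.9 TPM (-0.75 ± 0.15). Ddx10, an RNA helicase, went from 4.1 to 6.2 TPM to 2.6 to 3.2 TPM (-0.71 ± 0.12). At the other end Tsr1, a 40S assembly factor, had 0.16 ± 0.10 on deposited TPM, and it was called after scaling at 0.57.

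Of the 13 genes of 60S assembly, 2 rose and 4 fell, beside 14.2% and 50.7% of all tested genes, and 6 rose and none fell after scaling, beside 30.6% and 29.3%. Nip7 was at 19.7, 13.4, 17.9, 20.3, 16.2 and 18.5 TPM in SPF isotype and 22.3, 24.1, 27.1, 25.3, 21.2 and 16.99 TPM in SPF aCD3. The ranges overlapped through the treated library M3 (0.35 ± 0.10, limma adjusted p = 0.0039). Ebna1bp2 rose by 0.24 (limma adjusted p = 0.0368), and that call was lost without SPF isotype F1, M1 or M3 or SPF aCD3 F1 or M1. Bop1, of the PeBoW complex, fell by 0.44 (limma adjusted p = 0.0026) and had -0.07 after scaling, while its partners Pes1 and Wdr12 had -0.05 and 0.02 and were called after scaling, both at 0.35.

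Over the 45 genes, every SPF aCD3 library lay above every control library in 1 gene (Nhp2) and below in 7 (Fbl, Nop10, Polr1a, Rrp9, Wdr43, Ddx10 and Rcl1), beside 8.57% and 33.4% of all tested genes. After scaling the balance turned to 8 above and 2 below (Polr1a and Ddx10), beside 20.5% and 19.2% of all tested genes. Of 9 genes spanning 30 kb or more, 7 fell and none rose, with a median log2 fold change of -0.50, equal to the median of all tested genes of that span, 71.0% of which fell and 8.87% rose. After scaling 1 rose and 4 fell (22.7% and 46.8% of all genes of that span). Of 17 genes under 10 kb, 3 rose and 5 fell, with a median of -0.01 beside -0.22 for all genes of that span, 16.8% of which rose and 33.9% fell. After scaling 9 rose and 2 fell (32.4% and 17.6%). Over the 45 genes the Spearman correlation of fold change with span was -0.369, and -0.192 over all tested genes. The values are divided by genomic span and intronic reads were not shown to be left out. Among the genes called lower under both scalings, exons make up 2.09% of Ddx10, 4.25% of Rcl1, 10.7% of Wdr43 and 11.6% of Polr1a. The others of these were Rrp9 at 35.2% and Nop10 at 75.9%. Nop58, not called on deposited TPM and called higher after scaling, had 12.03%. The Spearman correlation of fold change with exon share was 0.312 over the 45 genes. It was 0.116 over the 11948 tested genes with an exon share. The part of intronic reads in these changes was not tested.

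**Figure D3:**
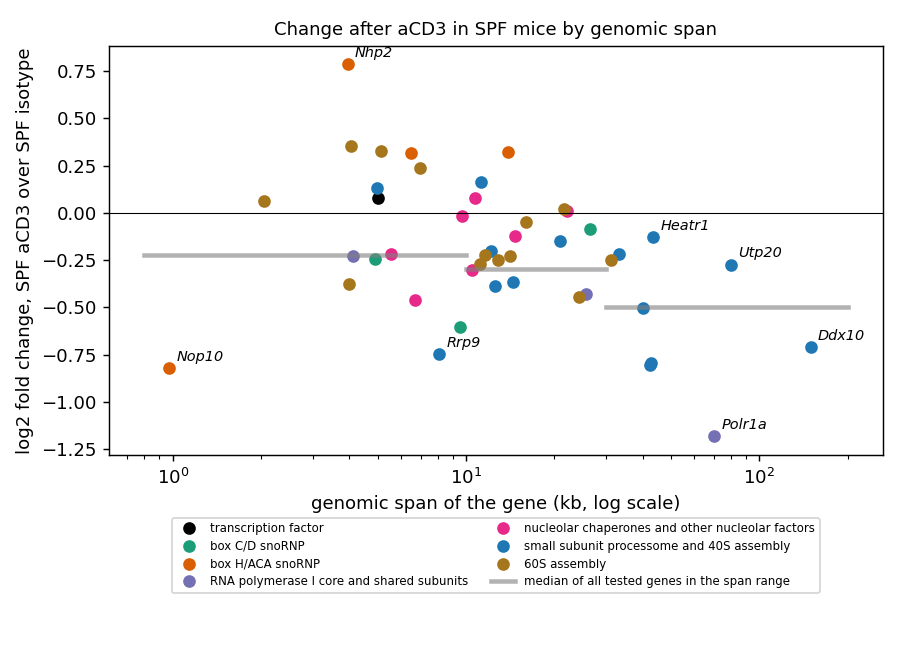
Log2 fold change in SPF mice (y axis) against the genomic span of the gene in kb (x axis, log scale), coloured by role. Grey bars are the medians of all tested genes in 3 span ranges, -0.22, -0.30 and -0.50. The long genes lie low, and Nop10 is a short gene that fell.

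The wider pathway held genes that moved either way in SPF mice, and its counts stand beside 14.2% of all tested genes higher and 50.7% lower, or 30.6% and 29.3% after scaling. Of 17 other genes of RNA polymerase I transcription, 2 rose and 9 fell (4 and 2 after scaling), with Taf1d, a subunit of its promoter selectivity factor, at 0.93 ± 0.17 and Taf1a, of the same factor, at -0.97 ± 0.16. Of 47 genes of the small subunit 1 rose and 19 fell (20 and 8 after scaling), and of 54 of the large subunit 2 rose and 28 fell (23 and 12). Sbds, which releases a block on 60S joining, fell from 57.9 ± 6.20 to 25.8 ± 1.23 TPM (SD, n = 6 each). Of 19 exosome and nuclease genes 5 rose and 6 fell (10 and 1), and Exosc9, an exosome core subunit, rose from 13.9 ± 1.49 to 32.8 ± 4.21 TPM. Of 12 nucleolar and snoRNP assembly factors 4 rose and 4 fell (8 and 0). Of 8 genes of a mixed list, 5S particle assembly and nucleolar stress, 0 rose and 4 fell (2 and 1). That list was drawn up with Trp53 and Mdm2 as well as Rpl5 and Rpl11. Of 81 cytosolic ribosomal protein genes 8 rose and 42 fell (32 and 10).

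Genes around MYC were also followed in SPF mice, beside the same shares of all tested genes (14.2% higher and 50.7% lower, or 30.6% and 29.3% after scaling). Of 13 genes of the MYC network 2 rose and 7 fell (6 and 7 after scaling). Mxd3, a MAX partner that represses MYC targets, rose from 9.57 ± 1.06 to 30.7 ± 1.60 TPM, and Mga, another MAX partner, fell from 15.6 ± 1.80 to 6.23 ± 0.704 TPM. Of 32 other known MYC targets 16 rose and 5 fell (23 and 3 after scaling). Ldha, lactate dehydrogenase, rose from 210 ± 19.7 to 503 ± 71.8 TPM and E2f1, a cell cycle transcription factor, from 3.35 ± 1.11 to 9.82 ± 2.17 TPM. Odc1, the first enzyme of polyamine synthesis and a known MYC target, fell from 291 ± 55.7 to 175 ± 29.2 TPM.

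Within SPF aCD3 the libraries from females stood above those from males, a split looked at only after the values had been seen. In 30 of the 45 genes each of the 3 female libraries was above each of the 3 male libraries, and in 0 genes the reverse held, beside 13.4% and 8.04% of all tested genes. After scaling the counts were again 30 and 0 (12.6% and 12.2%). In SPF isotype the counts were 2 and 1 (beside 3.6% and 11.6%) on deposited TPM and 7 and 0 (9.08% and 7.76%) after scaling. In GF isotype, with 5 of each sex, they were 0 and 0 under both (1.88% and 0.23%, and 0.772% and 0.616% after scaling). The male minus female difference in SPF aCD3 had a median of -0.37 on the log2 scale over the 45 genes. It passed the adjusted test in 4 of them (0.0985% of all genes were called lower), Myc at -0.91 ± 0.16, Nolc1 at -0.82 ± 0.13, Mybbp1a at -0.82 ± 0.13 and Pes1 at -0.52 ± 0.10, all lower in males, and in 5 after scaling (0.246%). Leaving out each SPF aCD3 library gave 1 to 6 genes, beside 0.0328 to 0.197% of all genes lower. After scaling it gave 0 to 5, beside 0.041 to 0.23%, with 0 without F2, F3, M2 or M3.

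Nolc1, a nucleolar phosphoprotein, showed the split plainly, at 50.1, 45.6 and 44.6 TPM in treated females and 26.7, 22.9 and 28.9 TPM in treated males, against 30.7 to 42.3 TPM in all SPF isotype libraries. Mybbp1a, a nucleolar MYB-binding protein, was at 52.9, 47.2 and 56.3 TPM in treated females and 34.5, 21.8 and 32.5 TPM in treated males, against 45.2 to 53.2 TPM in the controls. The test of whether the aCD3 effect differed between the sexes called 0 of 12182 genes (limma adjusted p under 0.05), or 0.0%, with 932 (7.65%) at an unadjusted p under 0.05, of which 17 were among the 45 genes, all lower in males. Mki67 overlapped between the sexes (258 to 335 TPM in females, 272 to 308 in males), and so did the histone share (23.8 to 26.8% and 23.8 to 26.2%) and the summed myeloid markers (62.0 to 153 TPM and 87.1 to 108 TPM). The summed pancreatic acinar markers did not overlap, at 2.20 to 3.15 TPM in females and 3.30 to 21.2 TPM in males, and their part in the split was not tested. In SPF isotype Mki67 did not overlap, at 63.0 to 71.7 TPM in females and 37.2 to 40.8 TPM in males. There the histone share was 5.17 to 7.04% in females and 4.05 to 4.76% in males, the summed B and plasma cell markers 97.1 to 148 and 213 to 277 TPM, and the acinar markers 3.47 to 5.68 and 2.30 to 2.87 TPM, none of which overlapped, the last in the direction opposite to SPF aCD3. Reads in genes were 8664997 to 12081482 in females and 8452633 to 9725944 in males. The sample numbers ran from 7 to 9 in the females and from 10 to 12 in the males, so sex and sample order cannot be told apart.

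**Figure D4:**
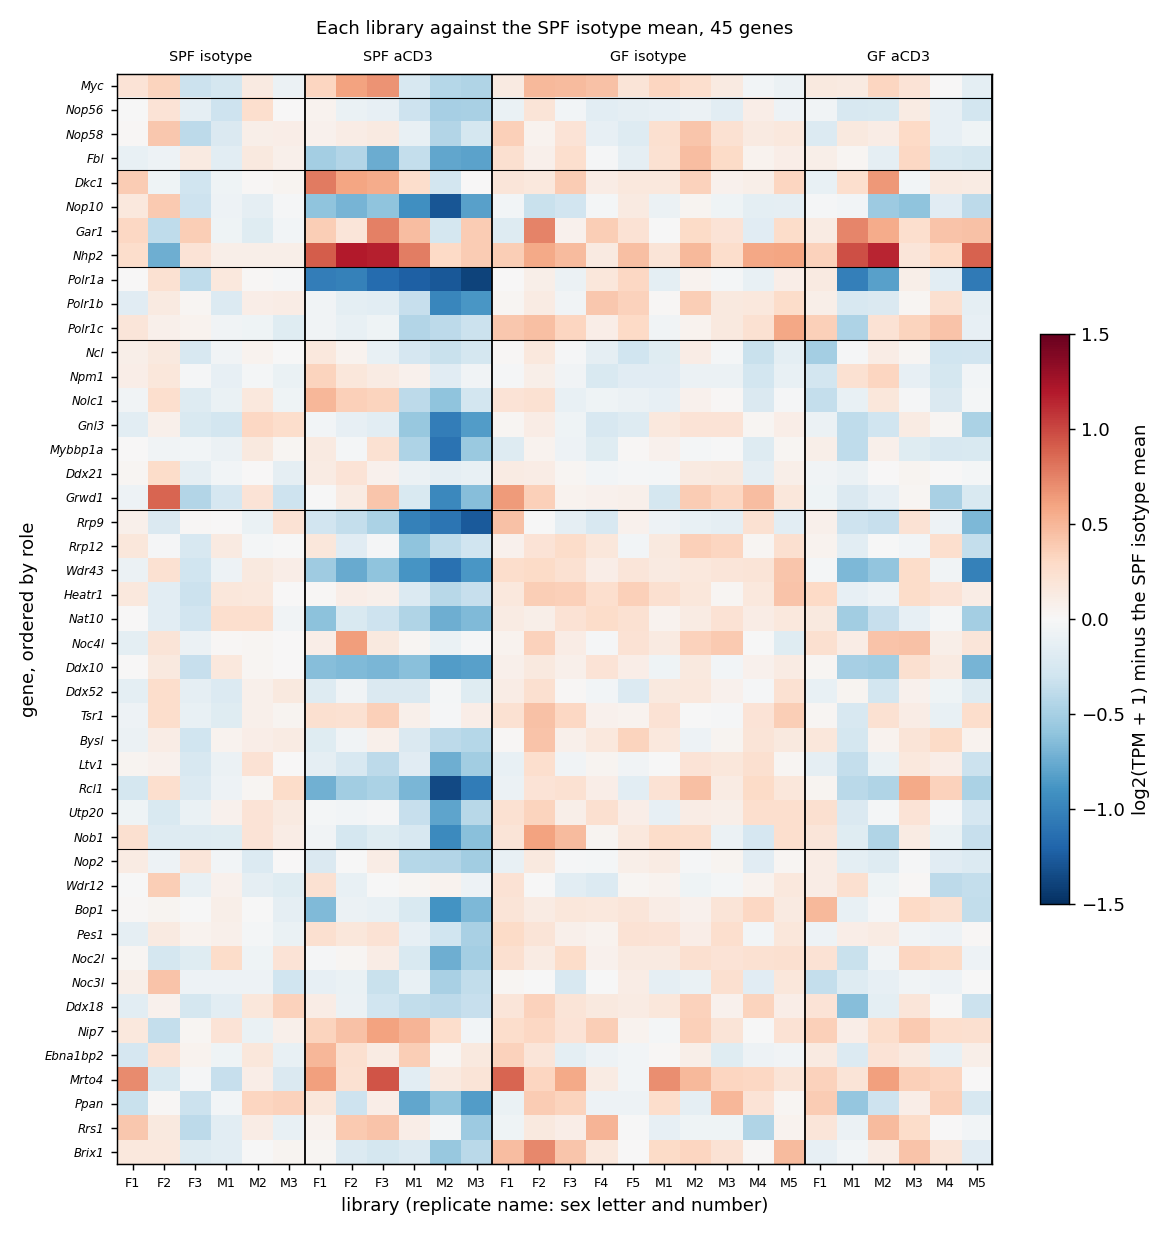
Log2(TPM + 1) of each of the 45 genes (rows, ordered by role) in each of the 28 libraries (columns, by group, named by sex letter and number) minus its SPF isotype mean, red higher and blue lower. The SPF aCD3 male libraries M1 to M3 are bluer than the females F1 to F3, and GF aCD3 M1, M2 and M5 have low Polr1a and Wdr43.

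In GF mice few of these genes were called after aCD3. Against GF isotype 0 genes rose and 2 fell, Wdr43 by 0.53 (SE 0.14) and Nat10, an RNA acetyltransferase, by 0.37 (SE 0.10) on the log2 scale, both at a limma adjusted p of 0.0481. Of all tested genes 2.46% rose and 4.61% fell. Both genes span over 30 kb, and of the 9 members of 30 kb or more 2 fell, beside 4.23% of all genes of that span. The Spearman correlation of fold change with span was -0.514 over the 45 genes and -0.138 over all tested genes. After scaling 0 rose and 1 fell (Wdr43, -0.37), beside 5.62% and 4.1% of all genes. At an unadjusted p under 0.05, 0 were higher and 6 lower, beside 8.73% and 26.99% of all tested genes. The count rested on single libraries, and so did that of all genes. It was 0 without any 1 of the 10 GF isotype libraries or without GF aCD3 M1, M2 or M5, and 0 of all tested genes were called in those fits. It was 5 without F1 or M4 and 7 without M3, all lower, beside 21.7, 24.2 and 28.04% of all genes lower. After scaling, 4 rose and 3 fell without F1 (15.4% and 13.01% of all genes), 5 and 3 without M3 (14.6% and 12.8%) and 5 and 4 without M4 (14.2% and 12.4%). The 1 that fell after scaling was lost without GF isotype F2 or any GF isotype male, or without GF aCD3 M1, M2 or M5, where 0 of all genes were called. The GF libraries came in 2 runs of sample numbers. With the run as a covariate 0 rose and 3 fell, Wdr43, Nat10 and Polr1a (-0.47), beside 5.99% and 12.2% of all genes. Within each run 0 of the 45 genes and 1 of all genes were called.

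The 6 GF aCD3 libraries differed among themselves. Polr1a was at 11.3 TPM in F1, 4.5 in M1, 5.4 in M2, 10.95 in M3, 9.0 in M4 and 4.4 in M5, beside 9.1 to 12.9 TPM in GF isotype. Wdr43 was at 20.4, 12.6, 13.5, 25.4, 20.0 and 9.8 TPM in the same order, beside 22.3 to 28.2 TPM. Nhp2 was at 34.6, 53.9, 60.8, 30.8, 33.6 and 50.8 TPM, beside 29.7 to 41.1 TPM. M1, M2 and M5 lay outside the GF isotype range for 26, 24 and 26 of the 45 genes and F1, M3 and M4 for 11, 10 and 13. Of all tested genes 61.4, 61.7 and 65.0% lay outside that range in M1, M2 and M5 and 15.4, 23.5 and 13.9% in F1, M3 and M4. The histone share was 23.4, 23.1 and 25.97% in M1, M2 and M5 and 5.39, 7.46 and 6.43% in F1, M3 and M4.

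Between GF and SPF isotype 0 of the 45 genes passed under either scaling, and 7 passed at an unadjusted p under 0.05 on deposited TPM, beside 25.5% of all tested genes (limma; at the adjusted threshold 7.17% of all tested genes were called on deposited TPM and 1.63% after scaling). On deposited TPM the values ran from -0.11 (Npm1, 95% interval -0.29 to 0.06) to 0.41 (Nhp2, 0.07 to 0.74), and Myc had 0.23 (-0.03 to 0.49). After scaling they ran from -0.27 to 0.25, and Myc had 0.075. Leaving out SPF isotype F1 or GF isotype F5 gave 1 gene, beside 4.66% and 6.39% of all genes. Sample numbers of the GF and SPF libraries did not mix, so colonisation and sample series cannot be told apart here or in the comparisons that follow.

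Between GF and SPF aCD3, 17 of the 45 genes were higher in GF and 0 lower on deposited TPM, beside 48.9% and 4.46% of all tested genes, with a median of 0.19 against 0.34 for all. After scaling 3 were higher and 12 lower (15.8% and 16.9% of all genes), with a median of -0.18. Higher under both were Polr1a (0.77 ± 0.17, limma adjusted p = 0.00103), Rcl1 (0.74 ± 0.18) and Ddx10 (0.51 ± 0.13). Ebna1bp2 had the lowest value, -0.17 ± 0.10, which passed only after scaling, at -0.57. Without SPF aCD3 M2 or GF aCD3 F1 the count higher was 11, beside 43.2% and 37.97% of all genes. After scaling, the count lower was 6, 7, 8 and 16 without GF aCD3 F1, M4, M3 and M2, beside 6.92, 10.5, 10.97 and 20.96% of all genes, and 8 without SPF aCD3 F1 or F3, beside 15.5% and 14.1%. The count higher was 1 without GF aCD3 F1, M3 or M4, beside 6.75, 10.3 and 9.91% of all genes. It was also 1 without SPF aCD3 M2 or M3 and 2 without F2, beside 13.998, 13.9 and 13.8%.

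The difference of the aCD3 effect between GF and SPF mice was called for Nop10 alone, at 0.67 ± 0.16 (limma adjusted p = 0.0288), beside 3.48% of all tested genes. After scaling it was called for Polr1a (0.53 ± 0.14), Tsr1 (-0.52 ± 0.16) and Nip7 (-0.50 ± 0.15), beside 11.7% of all genes, and not for Nop10 (0.42, limma adjusted p = 0.102). The count was 0 without SPF isotype F2, SPF aCD3 M2, GF aCD3 F1 or GF aCD3 M4, beside 1.36, 0.88, 0.263 and 0.799% of all genes. It was 4, 3, 6 and 7 without SPF isotype F3, GF aCD3 M1, GF aCD3 M2 and GF aCD3 M5, beside 17.1, 16.9, 20.5 and 26.2% of all genes. With the run of GF sample numbers as a covariate it was Nop10 alone again, beside 4.57%. After scaling, leaving out single libraries gave 0 to 2 genes higher and 0 to 6 lower. None came without GF aCD3 F1 or M4, 2 and 6 without GF aCD3 M2 (10.7% and 13.4% of all genes), and 2 and 5 without GF aCD3 M5 (11.2% and 13.6%).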

How the data were processed

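RNA of sorted CD4+ T cells was sequenced in 28 libraries. The authors deposited TPM per gene, made with HOMER on mm10 per the file headers; the stated gene length equals the genomic span in 99.2% of rows. The submitters' processing notes name Cell Ranger 7.1.0, R 4.4.2 and Seurat 5.1.0. The labels state polyA RNA, the design text a total RNA kit. Another 26 value columns were not used. Low values came out as whole reads (tolerance 0.2 reads) in 100% of cases.

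log2 values were computed here from the deposited TPM as log2(TPM + 1) and fitted with limma 3.58.1 in R 4.3.3, with means per group, a sex term and all 28 libraries, Benjamini-Hochberg adjusted over 12182 genes at 0.05. A fold change on this scale understates the change of low genes. On simulated data for SPF aCD3 against SPF isotype over 12430 genes, 99% of 2-fold changes were recovered. The simulation drew every group from the SPF isotype rates, with the same added noise for every gene and few genes changed. It held no shift like that of the real comparison, so it does not give the share recovered in these data. P-values measure the spread between these libraries.

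The members and lists were chosen with earlier results of these data known. The alternatives of scaled leave-one-out and sex within SPF were added after seeing the data. Of the promoter windows, that of 250 bases was run first and that of 300 bases, the one designed, second. Named were Myc, genes that were the most abundant, highest or lowest of their role, and some ends of the other comparisons. Noc4l and Noc2l, the most abundant of the small and large subunit roles, were not described with their roles. Rrp9, Ddx10, Dkc1, Gar1, Polr1b, Ddx21 and Wdr12 were given with values though not the most abundant, highest or lowest of their role. Nolc1, Mybbp1a, Pes1 and Npm1 were added after their values were seen. Strand use in counting is not stated, so reads of Nop56, Dkc1, Nhp2, Gnl3, Mybbp1a, Tsr1, Bysl, Bop1 and Noc2l cannot be told from those of genes that overlap them on the other strand. Replicate names did not pair the samples (correlations of same-named libraries from -0.208 to 0.198, 5 of 32 over 0.1).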

Additional observations from a re-analysis of the deposited data

Results flagged for a closer look

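Of 180 gene and group sets tested for a library far from the rest, 7 had one, and chance gives about 1 in 20, or 9. They were Gar1 in GF isotype F2 at 12.99 TPM (others 6.31 to 9.77), Nhp2 in SPF isotype F2 at 15.9 (28.7 to 32.8), Ddx21 in SPF isotype F2 at 72.2 (53.9 to 60.5), Noc4l in SPF aCD3 F2 at 38.7 (22.8 to 27.3), Ddx10 in SPF isotype F3 at 4.08 (5.44 to 6.17), Bop1 in GF isotype M4 at 11.5 (9.49 to 10.5) and Mrto4 in SPF isotype F1 at 11.9 (5.23 to 7.42).

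A test of the difference of the aCD3 effect between GF and SPF mice called Nop10, at 0.67 on the log2 scale (limma adjusted p = 0.0288). After scaling it called Polr1a at 0.53, Tsr1 at -0.52 and Nip7 at -0.50, and not Nop10. No gene of the 45 was called under both scalings. Of all tested genes 3.48% were called on deposited TPM and 11.7% after scaling. The Nop10 call was lost without SPF isotype F2, SPF aCD3 M2, GF aCD3 F1 or GF aCD3 M4.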

How the results depend on the processing

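By median of ratios the SPF counts were 20 higher and 6 lower (30.6% and 29.3% of all genes). The GF aCD3 against isotype count was 1 lower (4.1%), and the GF against SPF aCD3 counts were 3 higher and 12 lower (15.8% and 16.9%). The difference of effects was called for 3, of which 2 lower (11.7% of all genes in either direction). Among genes called under either scaling, log2 fold changes changed sign after scaling in SPF for Heatr1 0.26, Nop2 0.13, Nop56 0.17, Utp20 0.046, Bysl 0.21, Nolc1 0.40, Ncl 0.30, Brix1 0.14, Ddx52 0.26, Noc3l 0.10, Pes1 0.35, Ltv1 0.028, Nop58 0.32. They did so between GF and SPF aCD3 for Heatr1 -0.094, Nop2 -0.16, Noc2l -0.093, Ddx18 -0.26, Nop56 -0.26, Utp20 -0.0065, Nat10 -0.031, Bysl -0.086, Brix1 -0.034, Ddx52 -0.35. Shares of all genes follow in parentheses. Without Rn45s and histone genes the counts were 12 higher and 8 lower in SPF (22.9% and 35.9%; Nop56 turned to 0.024), 1 lower in GF (1.75%), 3 higher between isotype groups (18.6%), and 11 between aCD3 groups, 10 higher and 1 lower (40.9% and 4.9%). Array weights gave 5 lower in GF (23.4%), 2 higher between isotype groups (13.8%) and 8 higher between aCD3 groups (28.6%). A pseudocount of 0.1 gave 0 in GF (0%) and 3 higher for the difference of effects (5.02%), and no filter and each run of GF sample numbers gave 0 in GF (0%, and 1 gene in each run). The replicate block, on names that did not pair the samples, gave 0 in GF (0%), 2 higher between isotype groups (4.67%) and 0 for the difference of effects (1.33%).

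Leaving out 1 library gave 16 to 27 genes changed in SPF (2 to 5 higher, 13 to 23 lower; all genes 61.04 to 66.3%), 0 to 7 in GF (0 higher; all genes 0 to 34.7%), 0 to 1 between isotype groups (0 lower; all genes 2.65 to 8.13%), 11 to 19 between aCD3 groups (0 lower; all genes 40.2 to 59.4%) and 0 to 7 for the difference (0 lower; all genes 0.263 to 26.2%). After scaling, it gave 15 to 20 higher and 5 to 7 lower in SPF (all genes 28.9 to 30.6% and 27.7 to 29.1%), 0 to 5 and 0 to 4 in GF (0 to 15.4% and 0 to 13.01%), 0 and 0 between isotype groups (0.263 to 0.609% and 0.626 to 1.25%), 1 to 3 and 6 to 16 between aCD3 groups (6.75 to 19.7% and 6.92 to 20.96%), and 0 to 2 and 0 to 6 for the difference (0.881 to 11.2% and 1.23 to 13.6%). Of the 9 genes called in SPF under both scalings, Ebna1bp2 alone lost its call among the alternatives that change 1 choice. The split by sex is not among these. In it Nhp2, Nip7, Ebna1bp2, Rcl1 and Rrp9 were not called in both sexes on deposited TPM.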

Other observations

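Small nucleolar RNAs lie in introns of several of these genes and have rows of their own. Of 11 such rows 10 were tested in SPF mice and 8 did not pass, among them Snord70 (Nop58) at 1.33 (limma adjusted p = 0.353) and Snord110 (Nop56) at -2.51 (limma adjusted p = 0.0689). Of all tested genes 14.2% rose and 50.7% fell in that comparison. Snora75 and Snord82, both inside Ncl, fell in SPF aCD3, Snora75 from 86.1 ± 26.1 to 24.5 ± 12.4 TPM (log2 fold change -1.84, limma adjusted p = 0.000139) and Snord82 from 82.2 ± 23.0 to 21.8 ± 19.1 TPM (-2.57, limma adjusted p = 0.000947; SD, n = 6 each), while Ncl had -0.12. Both also passed after scaling, at -1.43 and -2.24. They rest on few reads, on average 17.3 and 5.17 a library for Snora75 and 9.83 and 2.67 for Snord82, and how fragments of Ncl transcripts enter these rows was not tested.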
